A study of Homo sapiens with 24 samples.

Results

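The 9 genes described here encode RNA-binding proteins that recognise sequence elements in the 3' ends of mRNAs and change how long those mRNAs last. They were taken by gene symbol, as the binders of AU-rich, Pumilio and cytoplasmic polyadenylation elements: ZFP36, ZFP36L1, ZFP36L2, ELAVL1, KHSRP, TIA1, TIAL1, PUM2 and CPEB4. They are 9 of the 25341 genes of the series, and all 9 are among the 13416 genes whose mean reached 1 TPM, the deposited abundance unit, in which the length of the transcript is divided out and every library has the same sum. The measurements concern the mRNAs that encode these proteins, not the proteins or their targets.

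The cells were U2OS, a human osteosarcoma line, in the form of a stable line built with a tetracycline-off switch for TOB2 S254D, a phosphomimetic mutant. The protein TOB2 is a member of the BTG/TOB family and recruits the CCR4-NOT deadenylase to mRNAs. In the induced arm doxycycline was left out and TOB2 S254D was expressed, and in the uninduced arm doxycycline was present. The drug and the transgene therefore changed together and cannot be told apart. RNA was labelled with bromouridine, chased for 0, 0.5, 1, 2, 4 or 6 h, extracted from the cytoplasm and recovered with an antibody to bromouridine, with 2 libraries in each of the 12 groups of arm and time and 24 libraries in all. Both arms carry the endogenous TOB2 gene. The labels do not say whether the line was 1 clone, or whether the replicates came from separate cultures, so the tests measure the spread between these libraries, which may be technical.

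AU-rich elements are short stretches rich in A and U in the 3' ends of many cytokine, growth-factor and immediate-early mRNAs. ZFP36 (tristetraprolin) and its relatives ZFP36L1 and ZFP36L2 bind them and bring in deadenylases and decapping factors, so the mRNA is degraded. ELAVL1 (HuR) binds similar U-rich sequences and mostly stabilises the mRNA, KHSRP (KSRP) brings in the decay machinery, and TIA1 and TIAL1 (TIAR) mostly hold back translation. PUM2 binds Pumilio elements and recruits CCR4-NOT, and CPEB4 binds U-rich cytoplasmic polyadenylation elements and can lengthen or shorten the poly(A) tail. The mRNA of ZFP36 itself has AU-rich elements and is bound by its own protein, and ZFP36 is an immediate-early gene whose transcription is brief.

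Over the whole series, between 12704 and 13757 genes reached 1 TPM in an induced library, and between 12594 and 13682 did so in an uninduced library. The sequencing depth is unknown, because every library is scaled to the same total. TOB2 itself stood between 499.0 and 725.0 TPM in the induced libraries and between 92.3 and 267.4 TPM in the uninduced libraries, and reads of the transgene and the endogenous gene are not separated in these values. The noncoding RNAs RMRP, MIR6723 and RPPH1 together held 7.14% to 27.5% of the TPM in the induced libraries and 7.78% to 22.6% in the uninduced libraries. They held most at the start of the chase, and the induced libraries of replicate 2 at 0 and 0.5 h had the highest shares, 27.5% in each. The labels call the cells epithelial. Of 5 epithelial markers EPCAM was at 0 in every library, CDH1 stayed at or below 0.57 TPM and KRT19 at or below 0.26 TPM, while KRT8 and KRT18 ranged from 483.6 TPM upwards. Of 6 mesenchymal markers VIM ranged over 345.7 to 968.0 TPM, CD44 over 52.0 to 176.6 TPM and COL1A1 over 5.56 to 22.9 TPM, while FN1, SPARC and COL1A2 stayed at or below 0.54 TPM. Of 5 osteoblast markers RUNX2 ranged over 1.68 to 7.53 TPM and BGLAP over 0 to 6.46 TPM, while SP7 and ALPL stayed at or below 0.60 TPM and IBSP was at 0 in every library. The leukocyte markers PTPRC and CD3E stayed at or below 0.60 TPM, and LYZ ranged over 11.7 to 60.4 TPM.

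In TPM, the 9 mRNAs fell into a group that was lost along the chase and a group that gained, though some calls changed with the scaling. A slope was fitted for each gene and arm as the change per hour in log2 of TPM plus 1. It is a change in the gene's share of the labelled cytoplasmic RNA: a loss common to all RNAs would not show, and loss cannot be separated from the arrival of labelled RNA in the cytoplasm after labelling. In pooled cells, fewer cells holding an mRNA and less of it per cell cannot be told apart either. In induced cells 4 of the 9 had slopes below 0 that passed the test (ZFP36, ZFP36L1, ZFP36L2 and CPEB4), and 5 had slopes above 0 (ELAVL1, KHSRP, TIA1, TIAL1 and PUM2). In uninduced cells the same 5 rose and ZFP36, ZFP36L1 and ZFP36L2 fell, while CPEB4 did not pass, a result that changed with the scaling. The induced rises of TIA1 and PUM2 did not pass with protein-coding transcripts alone or without the 3 noncoding RNAs. The test was limma's, with Benjamini-Hochberg adjustment over the 13416 genes and a threshold of 0.05. By the same rule 41.6% of all genes rose and 29.0% fell in induced cells, and 42.8% rose and 22.3% fell in uninduced cells, so passing the test was common. The division of called genes depended on the scaling. Rising genes were 58.9% of those called in induced cells and 65.8% in uninduced cells, but 44.7% (induced) and 51.8% (uninduced) without the 3 noncoding RNAs, 47.0% (induced) and 55.5% (uninduced) with protein-coding transcripts alone, and 48.4% in uninduced cells with median-of-ratios scaling. The median slope of all genes was 0.028 per hour in induced cells and 0.039 in uninduced cells.

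**Figure D1:**
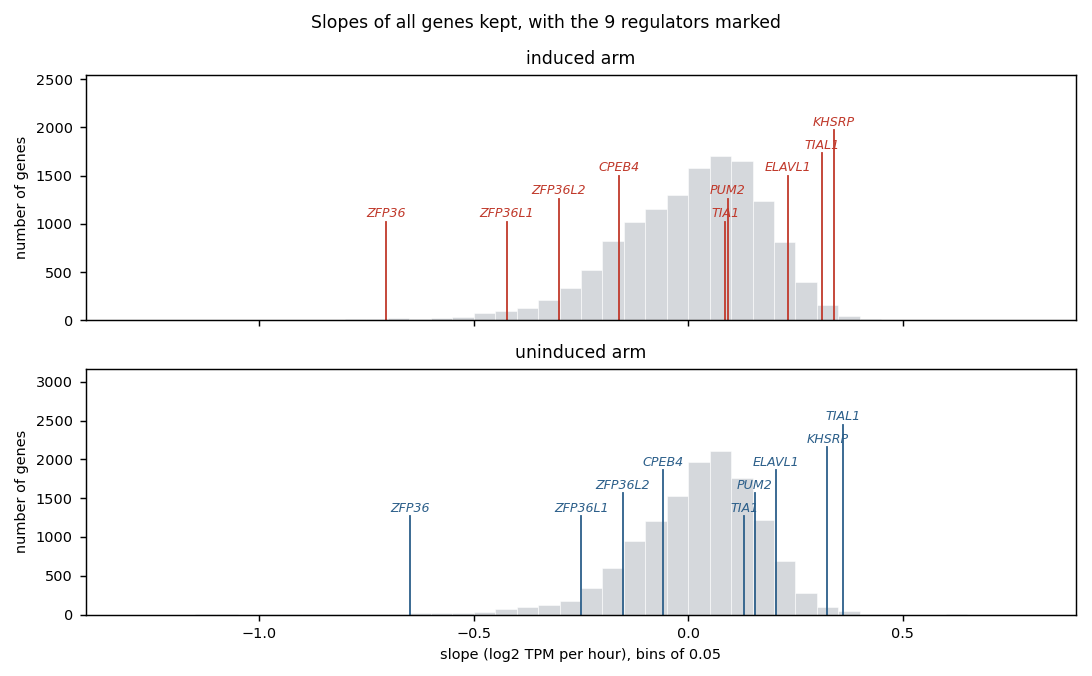
Histogram of the slopes of the 13416 genes kept, in log2 TPM per hour, for the induced arm above and the uninduced arm below, with a labelled line for each of the 9 regulators. ZFP36, ZFP36L1 and ZFP36L2 lie in the left tail in both arms, KHSRP and TIAL1 lie at the right edge, and TIA1, PUM2 and uninduced CPEB4 lie within the bulk of all genes.

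ZFP36, the founding member of the decay-promoting family, was lost fastest of the 9. In induced cells it stood at 92.8 and 109.0 TPM at 0 h, 65.2 and 67.5 at 0.5 h, 40.7 and 42.1 at 1 h, 23.2 and 26.8 at 2 h, 8.24 and 9.08 at 4 h, and 4.41 and 3.92 at 6 h. In uninduced cells the values were 116.0 and 137.2 TPM at 0 h, 74.2 and 67.2 at 0.5 h, 58.1 and 51.2 at 1 h, 28.0 and 32.6 at 2 h, 13.6 and 13.3 at 4 h, and 6.12 and 6.77 at 6 h. The mean was lower at each later time in both arms, and both replicates of the induced arm lay below both of the uninduced arm at every time but 0.5 h. Such separation was common: it held for 10.9%, 9.91%, 13.9%, 23.1% and 28.4% of all genes at 0, 1, 2, 4 and 6 h. The mean at 6 h was 4.13% of that at 0 h in induced cells and 5.09% in uninduced cells, a 24.2-fold loss in induced cells and a 19.6-fold loss in uninduced cells. The slope of ZFP36 was -0.71 per hour in induced cells (SE 0.0359, adjusted p = 4.23e-14) and -0.65 in uninduced cells (adjusted p = 3.51e-13). Counted from the most negative of 13416 slopes, it ranked 37 in induced cells and 38 in uninduced cells.

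ZFP36L1 did not fall from the start. In induced cells it stood at 142.3 and 143.2 TPM at 0 h, 214.7 and 158.4 at 0.5 h, 159.8 and 156.8 at 1 h, 110.9 and 107.0 at 2 h, 44.5 and 52.6 at 4 h, and 32.4 and 31.9 at 6 h. In uninduced cells it stood at 119.8 and 127.6 TPM at 0 h, 137.3 and 126.3 at 0.5 h, 146.1 and 138.1 at 1 h, 122.3 and 119.7 at 2 h, 73.5 and 68.7 at 4 h, and 50.3 and 48.4 at 6 h. The means peaked at 0.5 h in induced cells and at 1 h in uninduced cells. At 6 h 17.2% of the peak was left in induced cells and 34.7% in uninduced cells. The libraries of the induced arm were above those of the uninduced arm at 0, 0.5 and 1 h and below them at 2, 4 and 6 h, with no overlap at any of the 6 times. Of all genes, 16.2%, 21.6% and 23.3% were above in this way at 0, 0.5 and 1 h. Those below made up 13.9%, 23.1% and 28.4% at 2, 4 and 6 h. The share of genes separated at all 6 times was not counted.

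ZFP36L2, the highest of the family by mean TPM at every time in both arms, had the same crossing. In induced cells it stood at 201.7 and 186.6 TPM at 0 h, 258.4 and 211.2 at 0.5 h, 264.4 and 230.8 at 1 h, 186.3 and 199.0 at 2 h, 103.5 and 103.2 at 4 h, and 69.9 and 66.1 at 6 h. In uninduced cells it stood at 191.3 and 180.4 TPM at 0 h, 194.5 and 183.6 at 0.5 h, 229.9 and 215.8 at 1 h, 222.5 and 212.0 at 2 h, 154.0 and 133.7 at 4 h, and 114.4 and 97.9 at 6 h. The arms overlapped at 0 h, the induced libraries were higher at 0.5 and 1 h, and they were lower at 2, 4 and 6 h. The shares of all genes separated at these times are those given for ZFP36L1. Both arms peaked at 1 h, and 27.5% of the peak was left at 6 h in induced cells against 47.6% in uninduced cells.

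**Figure D2:**
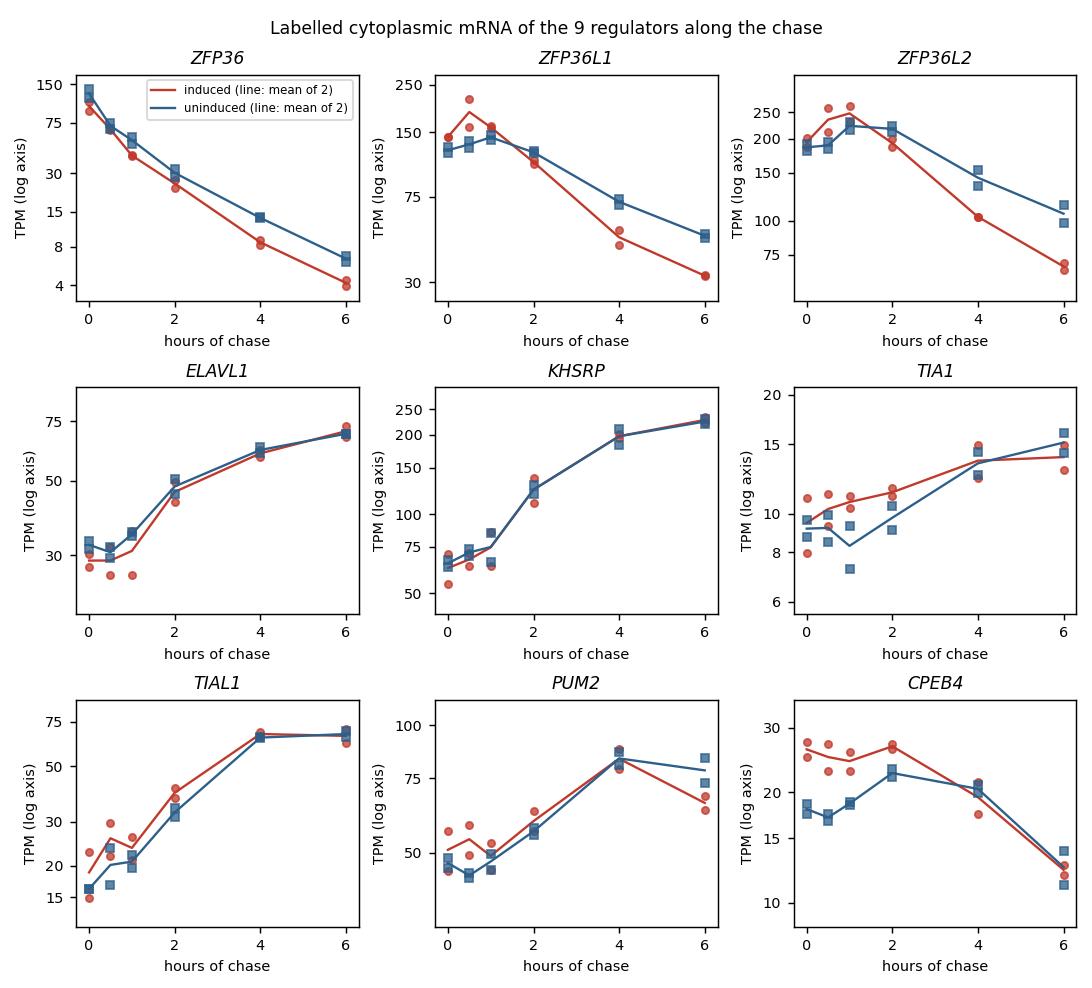
TPM of each of the 9 regulators against hours of chase on a logarithmic axis, with a point for each library and a line through the group means of the induced arm and of the uninduced arm (n = 2 libraries per arm and time). ZFP36 falls throughout, the ZFP36L1 and ZFP36L2 lines of the arms cross between 1 and 2 h, CPEB4 is higher in the induced arm up to 2 h and overlaps at 4 and 6 h, and the KHSRP lines of the arms lie nearly on top of each other.

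The slope of ZFP36L1 was -0.42 per hour in induced cells (SE 0.0295, adjusted p = 1.22e-11) and -0.25 in uninduced cells (adjusted p = 1.06e-07). For ZFP36L2 it was -0.30 in induced cells (SE 0.0304, adjusted p = 5.33e-09) and -0.15 in uninduced cells (adjusted p = 0.000122). The uninduced slope of ZFP36L2 was -0.097 (adjusted p = 0.115) when the chase was read only up to 4 h. Since neither gene fell from the start, slopes were also fitted from 1 h on. These were -0.46 per hour in induced cells and -0.31 in uninduced cells for ZFP36L1, -0.38 in induced cells and -0.23 in uninduced cells for ZFP36L2, and -0.62 in induced cells and -0.57 in uninduced cells for ZFP36. In that fit the difference between the arms' slopes passed the test for none of these genes. It passed for 27 of all genes, each with the lower slope in induced cells.

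None of the 9 passed the test of the slope difference itself, induced minus uninduced, a test that 0.343% of all genes passed with limma, 1 of them higher and 45 lower. Before adjustment, 3 of the 9 and 1673 of all genes had p under 0.05. ZFP36L1 came nearest, with a difference of -0.17 per hour (95% interval -0.26 to -0.088, adjusted p = 0.0571), and 1.16% of all genes had a more negative one. ZFP36L2 had -0.15 (interval -0.24 to -0.060, adjusted p = 0.130) and ZFP36 had -0.058 (interval -0.16 to 0.047, adjusted p = 0.701). The intervals of ZFP36L1 and ZFP36L2 leave out 0 before adjustment, while that of ZFP36 includes it. The call for ZFP36L1 depended on settings: the adjusted p was 0.0439 among genes of at least 5 TPM, 0.0109 with protein-coding transcripts alone, 0.0156 without the 3 noncoding RNAs, 0.0356 with quantile normalization and 0.0482 with a pseudocount of 0.1. It was 0.0295 without induced replicate 1 at 0 h and 0.0246 without induced replicate 2 at 0 h, with a slope difference of -0.19 each time. For ZFP36L2 the adjusted p was 0.0236 with protein-coding transcripts alone, 0.0332 without the 3 noncoding RNAs, 0.0409 with quantile normalization, and 0.0420 without induced replicate 2 at 0 h, where the slope difference was -0.17. With a trend contrast on the group means the adjusted p was 0.000309 for ZFP36L1, 0.000581 for ZFP36L2 and 0.0131 for CPEB4. That contrast takes its error from the spread between replicates alone, not from departures from a line. These settings also called more of all genes: 787 lower and 36 higher with the trend contrast. There were 396 lower and 4 higher with protein-coding transcripts alone, and 324 and 4 without the 3 noncoding RNAs. Quantile normalization gave 161 lower and 18 higher. Most settings kept the main result. Apart from leaving out libraries, 13 settings were tried, and ZFP36L1 passed in 6 of them and ZFP36L2 in 4. Among those 13 the adjusted p reached 0.489 for ZFP36L1 and 0.637 for ZFP36L2. No other removal of 1 library gave a call for either gene.

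**Figure D3:**
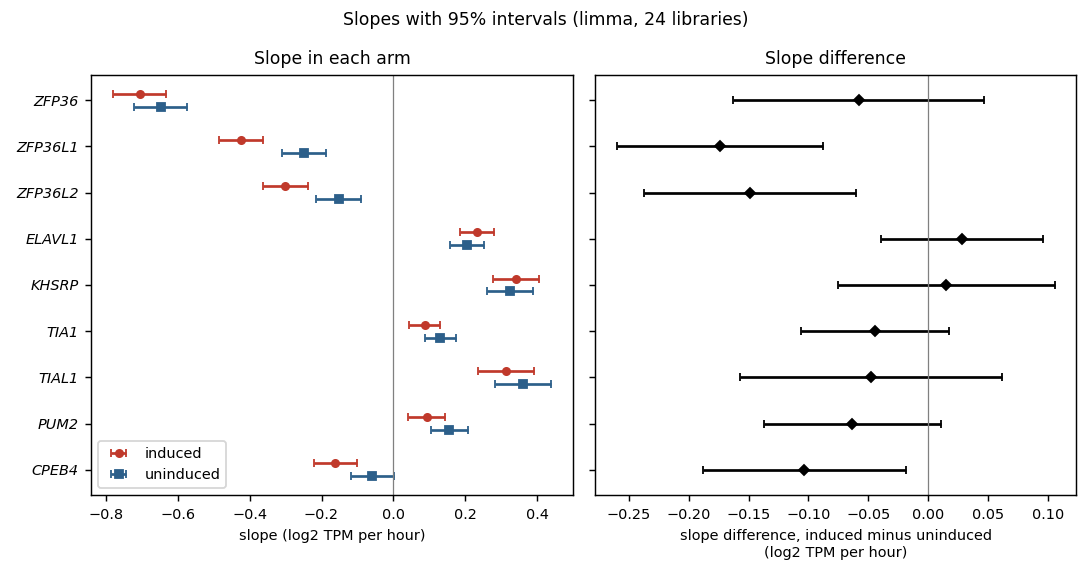
Fitted slope of each regulator in log2 TPM per hour for the induced arm and the uninduced arm, and beside it the slope difference, induced minus uninduced, with 95% intervals (24 libraries in a single fit). The induced slopes of ZFP36L1, ZFP36L2 and CPEB4 are the more negative, with intervals of the difference that leave out 0 before adjustment, and the arms of ELAVL1 and KHSRP differ by less than their intervals.

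The difference between the arms was then compared by level at each stage. At 0 h none of the 9 passed limma's test, which 0.0298% of all genes passed. Before adjustment, 2 of the 9 (ZFP36 and CPEB4) and 881 of all genes had p under 0.05. At 6 h all 3 ZFP36 genes were lower in induced cells and the other 6 members did not pass, against 9.14% of all genes called in either direction. The difference was -0.53 for ZFP36 (SE 0.122, adjusted p = 0.0100), -0.60 for ZFP36L1 (SE 0.115, adjusted p = 0.00269) and -0.63 for ZFP36L2 (SE 0.110, adjusted p = 0.00133), in log2 of TPM plus 1. The call for ZFP36 at 6 h was lost without induced replicate 2 at that time (-0.46, adjusted p = 0.104), without uninduced replicate 2 (-0.46, adjusted p = 0.0908), with quantile normalization (adjusted p = 0.0642) and with median-of-ratios scaling (adjusted p = 0.0578).

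Of the genes called at 6 h, 12.1% were higher in induced cells, but 25.7% with median-of-ratios scaling and 27.8% with quantile normalization. The ratio of the induced mean to the uninduced mean passed from above 1 to below 1 along the chase for ZFP36L1 and ZFP36L2. It was 1.15, 1.42, 1.11, 0.901, 0.683 and 0.651 for ZFP36L1 and 1.04, 1.24, 1.11, 0.887, 0.719 and 0.640 for ZFP36L2, in order of time. For ZFP36 it was below 1 throughout, at 0.797, 0.939, 0.758, 0.825, 0.644 and 0.646. At 6 h the 3 ratios thus lay within 0.640 to 0.651.

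**Figure D4:**
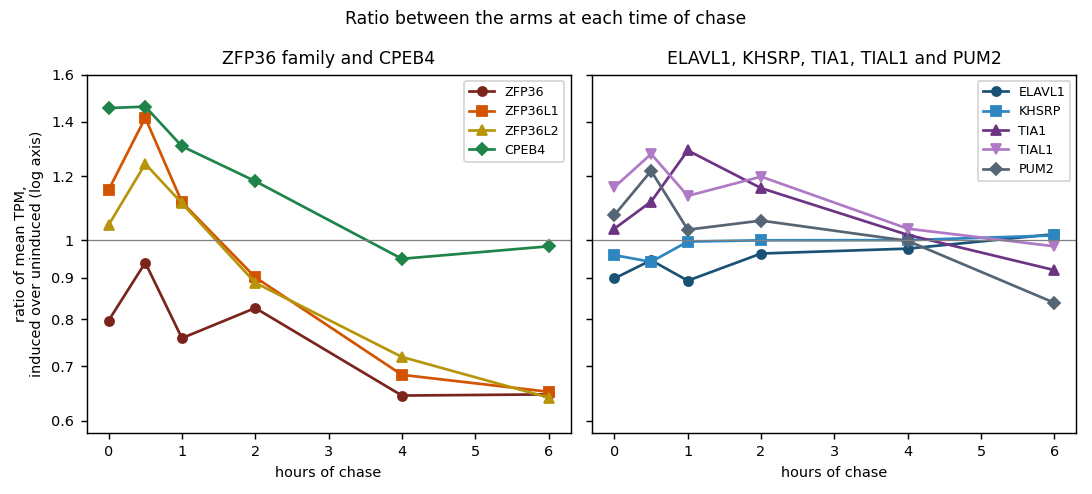
Ratio of the induced mean TPM to the uninduced mean TPM against hours of chase for the 9 regulators, on a logarithmic axis with a line at 1 (n = 2 libraries per arm and time). The ratios of ZFP36L1, ZFP36L2 and ZFP36 end between 0.640 and 0.651 at 6 h, that of CPEB4 starts at 1.45 and ends at 0.983, and that of KHSRP stays between 0.941 and 1.01.

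Because some ratios passed through 1, contrasts of the early times (0, 0.5 and 1 h) and the late times (4 and 6 h) were added after the values had been seen, so they describe a pattern already noticed. Over the early times, ZFP36L1 was higher in induced cells by 0.28 on the log2 scale (SE 0.0664, adjusted p = 0.0228) and ZFP36 lower by -0.27 (SE 0.0705, adjusted p = 0.0381). ZFP36L2 differed by 0.17 there (adjusted p = 0.121). That difference passed with protein-coding transcripts alone (0.23, adjusted p = 0.00863), without the 3 noncoding RNAs (0.21, adjusted p = 0.0157), with quantile normalization (0.17, adjusted p = 0.0421) and without induced replicate 2 at 0.5 h (0.22, adjusted p = 0.0491). Over all genes 5.54% passed this test. Of those, 59.0% were higher in induced cells, but 40.9% with median-of-ratios scaling, 46.3% with quantile normalization, 80.7% without the 3 noncoding RNAs and 83.9% with protein-coding transcripts alone. The early calls of ZFP36L1 and ZFP36 rested on particular libraries, and that of ZFP36 also on the scaling. That of ZFP36L1 was lost without uninduced replicate 2 at 0.5 h (adjusted p = 0.0843), replicate 1 at 0 h (0.0511) or replicate 2 at 1 h (0.0679). That of ZFP36 was lost without any of 9 of the 12 early libraries, with differences of -0.30 to -0.23 and adjusted p of 0.0511 to 0.110. The 3 whose removal kept it were induced replicate 2 at 0 h and at 0.5 h and uninduced replicate 1 at 0 h. It was also lost with protein-coding transcripts alone (-0.21, adjusted p = 0.0782) and without the 3 noncoding RNAs (-0.23, adjusted p = 0.0634).

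Over the late times all 3 family genes were lower in induced cells, by -0.55 for ZFP36 (SE 0.0863, adjusted p = 0.000258), -0.57 for ZFP36L1 (SE 0.0813, adjusted p = 0.000111) and -0.55 for ZFP36L2 (SE 0.0778, adjusted p = 0.000109), against 16.2% of all genes called. These calls held without any 1 library and under every setting tried. The late difference minus the early difference passed for ZFP36L1 (-0.86, SE 0.105, adjusted p = 0.000278), ZFP36L2 (-0.72, SE 0.10, adjusted p = 0.000565) and CPEB4 (-0.51, SE 0.111, adjusted p = 0.0106). It did not pass for ZFP36 (-0.29, adjusted p = 0.164) or the other 5 members. By this test 5.72% of all genes were called, nearly all of them lower: the share higher was 4.43%, and 21.3% with median-of-ratios scaling or 24.7% with quantile normalization. Over genes called in the late contrast 25.9% were higher, against 37.1% with median-of-ratios scaling and 41.5% with quantile normalization.

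The make-up of the family, taken as shares of its summed TPM, shifted along the chase in both arms. TPM here counts labelled RNA recovered with the antibody, and whether recovery differed between genes was not tested. ZFP36 held 23.0% ± 2.55 of the summed TPM of the 3 family genes in induced cells and 29.0% ± 2.59 in uninduced cells at 0 h (SD, n = 2 each). At 6 h it held 3.99% ± 0.206 in induced cells and 4.00% ± 0.595 in uninduced cells. ZFP36L2 held the larger share by then, with 65.2% ± 0.453 in induced cells and 65.5% ± 2.13 in uninduced cells at 6 h, against 44.4% ± 2.59 in induced cells and 42.7% ± 3.01 in uninduced cells at 0 h. The mean share of ZFP36L1 stayed between 28.3% and 38.1% at every time in both arms, and single libraries ran from 28.0% to 39.9%.

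The shares at 6 h thus differed between the arms by less than the spread of the replicates, while the sums did not. The family sum was 104.3 ± 3.31 TPM in induced cells and 161.9 ± 12.6 TPM in uninduced cells at 6 h, and at 0 h it was 437.7 ± 1.41 TPM in induced cells and 436.2 ± 12.9 TPM in uninduced cells. Per unit of ELAVL1 TPM, the family stood at 15.2 ± 1.04 in induced cells and 13.6 ± 0.163 in uninduced cells at 0 h. At 0.5 h the ratio was 16.9 ± 0.156 in induced cells and 12.8 ± 1.32 in uninduced cells, and at 6 h it was 1.49 ± 0.0346 in induced cells and 2.35 ± 0.184 in uninduced cells.

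**Figure D5:**
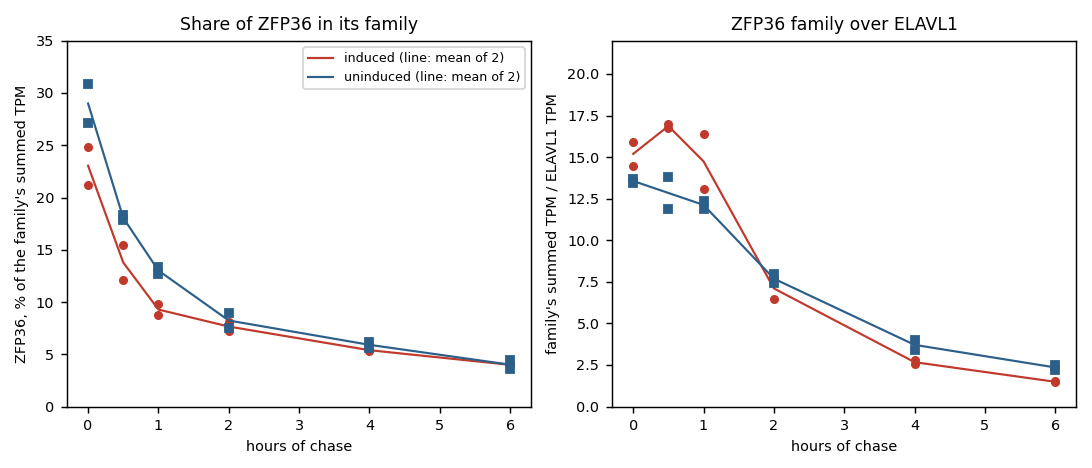
Share of ZFP36 in the summed TPM of ZFP36, ZFP36L1 and ZFP36L2, in percent, and beside it that sum over the TPM of ELAVL1, against hours of chase, with a point for each library and a line through the means of the induced arm and of the uninduced arm (n = 2 libraries per arm and time). The ZFP36 share drops to 3.99% in induced cells and 4.00% in uninduced cells at 6 h, where the ratio to ELAVL1 is 1.49 in induced cells and 2.35 in uninduced cells.

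CPEB4, the cytoplasmic polyadenylation element binder, had another course: it was higher in induced cells early in the chase, and the arms overlapped at its end. In induced cells it stood at 27.4 and 25.0 TPM at 0 h, 27.0 and 22.9 at 0.5 h, 25.7 and 22.9 at 1 h, 26.3 and 27.1 at 2 h, 17.5 and 21.3 at 4 h, and 12.7 and 11.9 at 6 h. In uninduced cells it stood at 18.6 and 17.4 TPM at 0 h, 16.7 and 17.4 at 0.5 h, 18.8 and 18.4 at 1 h, 21.9 and 23.2 at 2 h, 19.9 and 21.0 at 4 h, and 13.8 and 11.2 at 6 h. Both induced libraries were above both uninduced libraries at 0, 0.5, 1 and 2 h, and the arms overlapped at 4 and 6 h. Separation of this kind held for 16.2%, 21.6%, 23.3% and 30.6% of all genes at 0, 0.5, 1 and 2 h. Over the early times the difference was 0.47 (SE 0.0705, adjusted p = 0.00163), and over the late times it was -0.047 (SE 0.0863, adjusted p = 0.767). At 0 h alone the difference was 0.52 (SE 0.122, adjusted p = 0.292).

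The induced slope of CPEB4 was -0.16 per hour (SE 0.0290, adjusted p = 2.68e-05) and the uninduced slope -0.059 (adjusted p = 0.0793), with a difference of -0.10 (interval -0.19 to -0.019, adjusted p = 0.278). At 6 h 47.0% of the 0 h level was left in induced cells and 69.5% in uninduced cells. The means were highest at 2 h in both arms, and 46.1% of that peak was left in induced cells and 55.4% in uninduced cells. The uninduced slope changed with the times read: it was 0.064 with the chase up to 4 h and -0.12 (adjusted p = 0.0167) from 1 h on. With each of 4 other scalings it was more negative and passed: -0.11 (adjusted p = 0.000456) with median-of-ratios scaling, -0.10 (adjusted p = 0.00170) with protein-coding transcripts alone, -0.096 (adjusted p = 0.00335) without the 3 noncoding RNAs and -0.089 (adjusted p = 0.000921) with quantile normalization. It also passed with the trend contrast (-0.059, adjusted p = 0.00512), and without uninduced replicate 1 at 4 h (-0.068, adjusted p = 0.0489) or replicate 2 at 4 h (-0.071, adjusted p = 0.0369).

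Averaged over all 6 times with equal weight, 3 members passed the test between the arms, against 25.7% of all genes. CPEB4 was higher in induced cells by 0.26 (SE 0.0498, adjusted p = 0.00144), ZFP36 lower by -0.36 (SE 0.0498, adjusted p = 8.09e-05) and ZFP36L2 lower by -0.13 (SE 0.0449, adjusted p = 0.0482). The first 2 calls held without any 1 library. That of ZFP36L2 was lost in 19 of 24 such fits, with differences of -0.14 to -0.10 and adjusted p up to 0.0987. The 5 libraries whose removal kept it were induced replicate 1 at 0.5 and 1 h, induced replicate 2 at 2 h, and uninduced replicate 2 at 4 and 6 h. It was also lost with no filter on low values (adjusted p = 0.0591), with no variance trend (adjusted p = 0.0682) and with protein-coding transcripts alone (-0.096, adjusted p = 0.0502). ZFP36L1 had a mean difference of -0.076 (adjusted p = 0.245), made of the opposite early and late differences above, and of -0.11 (adjusted p = 0.0388) without induced replicate 1 at 0.5 h. The median mean difference of all genes was 0.051, and 55.6% of called genes were higher in induced cells, but 65.8% without the 3 noncoding RNAs and 67.7% with protein-coding transcripts alone.

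KHSRP and ELAVL1 gained along the chase in both arms. KHSRP, which brings AU-rich mRNAs to the exosome, stood at 70.3 and 54.4 TPM in induced cells and 67.1 and 62.9 TPM in uninduced cells at 0 h. At 6 h it stood at 232.7 and 222.5 TPM in induced cells and 228.7 and 220.2 TPM in uninduced cells, and the arms overlapped at all 6 times. Its mean was 3.65-fold higher at 6 h than at 0 h in induced cells and 3.45-fold in uninduced cells. Its slope of 0.34 per hour in induced cells (adjusted p = 1.02e-09) and 0.32 in uninduced cells (adjusted p = 3.96e-09) lay above 99.3% of all genes in both arms. The slope difference was 0.015 per hour with an interval of -0.075 to 0.11 (adjusted p = 0.927), and the mean level difference was -0.025 (adjusted p = 0.798).

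ELAVL1, the stabilising HuR, stood at 30.2 and 27.6 TPM in induced cells and 31.2 and 33.1 TPM in uninduced cells at 0 h. At 6 h it stood at 72.9 and 67.4 TPM in induced cells and 68.9 and 68.9 TPM in uninduced cells. The induced libraries lay below the uninduced ones at 0 h, as for 10.9% of all genes, and overlapped with them at the other 5 times. Its slope was 0.23 per hour in induced cells (adjusted p = 4.46e-09) and 0.20 in uninduced cells (adjusted p = 5.38e-08). The slope difference of 0.028 had an interval of -0.040 to 0.096 (adjusted p = 0.785). The mean level difference was -0.079 (adjusted p = 0.275), and passed with median-of-ratios scaling (adjusted p = 0.0469).

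TIA1 and TIAL1, the related binders of U-rich sequences that gather in stress granules, both gained, TIAL1 much more. TIAL1 stood at 22.8 and 14.9 TPM in induced cells and 16.2 and 16.2 TPM in uninduced cells at 0 h, and at 61.5 and 70.4 TPM in induced cells and 69.0 and 65.1 TPM in uninduced cells at 6 h. Its slope was 0.31 per hour in induced cells (adjusted p = 8.70e-08) and 0.36 in uninduced cells (adjusted p = 1.48e-08), with a difference of -0.048 (interval -0.16 to 0.061, adjusted p = 0.771). TIA1, the lowest of the 9 at 0 h in both arms, stood at 11.0 and 7.98 TPM in induced cells and 9.63 and 8.73 TPM in uninduced cells at 0 h, and at 12.9 and 14.9 TPM in induced cells and 16.1 and 14.2 TPM in uninduced cells at 6 h. Its slope was 0.086 per hour in induced cells (adjusted p = 0.000836) and 0.13 in uninduced cells (adjusted p = 8.94e-06), with a difference of -0.044 (interval -0.11 to 0.017, adjusted p = 0.585). Both induced libraries were above both uninduced ones at 1 and 2 h for TIA1 and at 2 and 4 h for TIAL1, with overlap at the other 4 times. The same held for 23.3%, 30.6% and 25.5% of all genes at 1, 2 and 4 h. The ratio of TIAL1 to TIA1 was 1.97 ± 0.145 in induced cells and 1.77 ± 0.127 in uninduced cells at 0 h (SD, n = 2 each). At 6 h it was 4.74 ± 0.0431 in induced cells and 4.44 ± 0.192 in uninduced cells.

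The induced slope of TIA1 depended on settings. It was 0.032 (adjusted p = 0.166) with protein-coding transcripts alone, 0.042 (adjusted p = 0.0675) without the 3 noncoding RNAs and 0.041 (adjusted p = 0.118) without replicate 2. The mean level of TIAL1 differed by 0.16 between the arms (adjusted p = 0.124), and that difference passed without induced replicate 2 at 0 h (0.21, adjusted p = 0.0277), with protein-coding transcripts alone (adjusted p = 0.0270) and without the 3 noncoding RNAs (adjusted p = 0.0391). TIA1 differed by 0.10 (adjusted p = 0.268).

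PUM2, the Pumilio element binder, was highest by mean at 4 h in both arms, without a steady gain up to 1 h. Its means at 0, 0.5, 1 and 2 h were 50.8, 53.8, 49.2 and 59.4 TPM in induced cells. In uninduced cells they were 47.3, 44.2, 47.7 and 56.2 TPM. By library, PUM2 stood at 56.3 and 45.3 TPM at 0 h, 78.7 and 88.2 at 4 h, and 68.1 and 63.1 at 6 h in induced cells. In uninduced cells it stood at 45.9 and 48.7 TPM at 0 h, 86.7 and 80.4 at 4 h, and 83.5 and 73.0 at 6 h. The induced libraries of PUM2 were above the uninduced ones at 0.5 h and below them at 6 h, and overlapped at the other 4 times. Of all genes, 21.6% were above at 0.5 h and 28.4% below at 6 h. The slope of PUM2 was 0.092 per hour in induced cells (adjusted p = 0.00247) and 0.16 in uninduced cells (adjusted p = 1.06e-05), with a difference of -0.063 (interval -0.14 to 0.011, adjusted p = 0.501). The induced slope was 0.034 (adjusted p = 0.201) with protein-coding transcripts alone, 0.026 (adjusted p = 0.235) with quantile normalization, 0.044 (adjusted p = 0.102) without the 3 noncoding RNAs and 0.068 (adjusted p = 0.0579) without replicate 2. The mean level difference was 0.039 (adjusted p = 0.592).

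Counts of libraries that do not overlap need the same reading as the calls, since with 2 libraries against 2 many genes separate. Over all genes, both induced libraries were above both uninduced ones for 16.2% of genes at 0 h, 21.6% at 0.5 h, 23.3% at 1 h, 30.6% at 2 h, 25.5% at 4 h and 31.3% at 6 h. They were below for 10.9%, 17.1%, 9.91%, 13.9%, 23.1% and 28.4% of genes at the same times.

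The order of the 9 mRNAs by TPM of recovered labelled RNA turned over during the chase. At 0 h ZFP36L2 was the highest and TIA1 the lowest in both arms. At 6 h KHSRP was the highest and ZFP36 the lowest in both arms. Neighbours in this order did not always separate: KHSRP and PUM2 overlapped in induced cells at 0 h, ZFP36 and ZFP36L1 overlapped in uninduced cells at 0 h, and ELAVL1 and TIAL1 overlapped in uninduced cells at 6 h. Below KHSRP in induced cells at 6 h, ELAVL1, ZFP36L2 and TIAL1 each overlapped the next in order, down to PUM2.

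For 5 members (CPEB4, ELAVL1, KHSRP, ZFP36 and ZFP36L2) the table lists 1 transcript. Of the 3 transcripts of ZFP36L1, NM_001244701 held 96.5% of the gene's TPM. The pair of TIA1 transcripts moved apart. NM_022037, with 63.8% of the TPM, rose by 0.22 per hour in induced cells (adjusted p = 0.00161) and 0.20 in uninduced cells (adjusted p = 0.00387). NM_022173, with 36.2%, had slopes of -0.12 (adjusted p = 0.0730) in induced cells and -0.020 (adjusted p = 0.815) in uninduced cells. The difference between the transcripts was not tested. The TIAL1 transcripts NM_001033925 (51.2%) and NM_003252 (48.8%) were divided unevenly between replicates. NM_003252 had 0 and 9.56 TPM in induced cells and 12.7 and 8.12 TPM in uninduced cells at 0 h. The main PUM2 transcript, NM_015317, held 69.0% and rose by 0.087 per hour in induced cells (adjusted p = 0.00295) and 0.12 in uninduced cells (adjusted p = 0.000128). No transcript of a member passed the test of the slope difference in this fit across 21749 transcripts.

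Likeness of courses was measured by Pearson's r over the 12 group means of log2 of TPM plus 1, which share the libraries, the scaling and a common trend with time, and is given as a description. ZFP36L1 and ZFP36L2 followed each other at r = 0.978, and ELAVL1 and KHSRP at 0.992. ZFP36 ran opposite to KHSRP at -0.969. CPEB4 followed no member closely, with values from -0.578 with ELAVL1 to 0.759 with ZFP36L2. Among 10376 other genes that averaged 5 TPM or more, the closest to CPEB4 was its own relative CPEB2 (0.966), then ZC3H12C (0.962) and TCF7L2 (0.955). ZFP36 was closest to COX19 (0.995), BTG2 (0.995) and C7orf43 (0.995). BTG2 encodes another member of the BTG/TOB family. ZFP36L1 was closest to TMCC1 (0.991), CKMT2-AS1 (0.990) and SNAI2 (0.989), and ZFP36L2 to EFNA1 (0.988), KLF2 (0.984) and PHLDA1 (0.983). For ELAVL1 these were UBR7 (0.996), SHCBP1 (0.995) and NFYC (0.995), and for KHSRP they were SETD7 (0.998), SHCBP1 (0.998) and STAU1 (0.997). TIA1 was closest to ZDHHC23 (0.980), TIAL1 to CD164 (0.995) and PUM2 to FOXJ3 (0.986).

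Among 39 other 3' end-binding proteins, 34 reached 1 TPM. In induced cells 20 of the 34 rose and 8 fell, and in uninduced cells 24 rose and 4 fell, with median slopes of 0.14 per hour in induced cells and 0.13 in uninduced cells. By the same rule 41.6% of all genes rose and 29.0% fell in induced cells. In uninduced cells 42.8% rose and 22.3% fell, and these shares depended on the scaling. With limma 0 of the 34 passed the test of the slope difference, and the median difference was -0.016, against -0.0094 for all genes. Before adjustment, 7 of the 34 and 1673 of all 13416 genes had p under 0.05. The smallest p belonged to ELAVL2, a neuronal relative of HuR, whose slope was -0.28 in induced cells and -0.16 in uninduced cells (difference -0.12, adjusted p = 0.0540). YTHDF2, the reader of N6-methyladenosine that brings CCR4-NOT to modified mRNAs, had slopes of -0.23 in induced cells and -0.10 in uninduced cells (difference -0.13, adjusted p = 0.130). At 6 h YTHDF2 stood at 161.1 ± 3.56 TPM in induced cells and 268.4 ± 12.7 TPM in uninduced cells (SD, n = 2 each). MSI2, the Musashi translational regulator, had 0.15 in induced cells and 0.083 in uninduced cells (adjusted p of the difference 0.150). IGF2BP3, an mRNA-stabilising oncofetal protein, had -0.099 in induced cells and 0.0073 in uninduced cells (adjusted p of the difference 0.208). By mean level over the 6 times 5 of the 34 were higher and 6 lower in induced cells, where 25.7% of all genes were called in either direction. CPEB2, the closest in course to CPEB4, was among the higher ones (0.24, adjusted p = 0.0239), and YTHDF2 was among the lower ones (-0.23, adjusted p = 9.30e-05).

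Of 17 kinases and adaptors that act on the members, among them the p38 pathway kinases that phosphorylate ZFP36 and the 14-3-3 proteins that bind it, 15 rose and 0 fell in induced cells and 14 rose and 0 fell in uninduced cells. Over all genes 41.6% rose and 29.0% fell in induced cells and 42.8% rose and 22.3% fell in uninduced cells, shares that depended on the scaling. At p under 0.05 before adjustment the counts in either direction were 15 in induced cells and 14 in uninduced cells. Their median slopes were 0.18 per hour in induced cells and 0.16 in uninduced cells. None passed the test of the slope difference, and 1673 of all 13416 genes had p under 0.05 before adjustment. Of the 17, 1 did: YWHAQ, a 14-3-3 protein, with 0.053 (adjusted p = 0.354). RPS6KA1, a kinase of the RSK family, had 0.072 (adjusted p = 0.405), YWHAH, another 14-3-3 protein, -0.045 (adjusted p = 0.440), and MAPKAPK3, a p38-activated kinase, 0.050 (adjusted p = 0.454).

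Of 33 mRNAs known for AU-rich elements that reached 1 TPM, out of 37 in the table, 20 fell and 5 rose in induced cells and 17 fell and 5 rose in uninduced cells. By the same rule 29.0% of all genes fell and 41.6% rose in induced cells. In uninduced cells 22.3% fell and 42.8% rose, and these shares depended on the scaling. The median slopes of the 33 were -0.10 per hour in induced cells and -0.085 in uninduced cells, against 0.028 in induced cells and 0.039 in uninduced cells for all genes. Of the 33, 1 passed the test of the slope difference, against 0.343% of all genes. Before adjustment, 6 of the 33 and 1673 of all 13416 genes had p under 0.05 with limma. The gene that passed was DUSP1, the phosphatase that switches off p38 and JNK, with -0.91 in induced cells and -0.71 in uninduced cells (difference -0.19, adjusted p = 0.0263). At 6 h DUSP1 stood at 59.4 ± 1.51 TPM in induced cells and 151.6 ± 30.4 TPM in uninduced cells (SD, n = 2 each). MCL1, an inhibitor of apoptosis, had a difference of -0.16 (adjusted p = 0.223), CDKN1A, the cell cycle inhibitor p21, -0.099 (adjusted p = 0.192), and CCND1, cyclin D1, -0.070 (adjusted p = 0.315). The median difference of the 33 was -0.062.

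Of 9 partners and targets of PUM and CPEB proteins in the table, 7 reached 1 TPM. Shares over all genes, which depended on the scaling, were 41.6% rising and 29.0% falling in induced cells and 42.8% and 22.3% in uninduced cells. Of the 7, 4 rose and 2 fell in induced cells, and 4 rose and 1 fell in uninduced cells. Their median slopes were 0.071 in induced cells and 0.12 in uninduced cells, and no test compared the 7 with all genes. None of the 7 passed the test of the slope difference, and 1673 of all 13416 genes had p under 0.05 before adjustment. Of the 7, 1 did: E2F3, a cell cycle transcription factor, with -0.15 in induced cells and -0.0048 in uninduced cells (difference -0.14, adjusted p = 0.124). CDKN1B, the cell cycle inhibitor p27 and a Pumilio target, fell by 0.62 per hour in induced cells and by 0.49 in uninduced cells (difference -0.13, adjusted p = 0.456). SYMPK, a scaffold of the polyadenylation machinery, had a difference of 0.072 (adjusted p = 0.448), and NANOS1, a Pumilio partner, -0.059 (adjusted p = 0.618).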

How the data were processed

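The deposited values are TPM per RefSeq transcript, which the authors computed from bromouridine-immunoprecipitated cytoplasmic RNA. The submitters' processing notes name hg19 as the build and RSEM 1.3.0, Bowtie2 and Trim Galore as tools, without their roles. Depth is unknown, so no counting error is given.

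TPM of the 48009 transcripts was summed by gene symbol to 25341 genes, of which 13416 averaged at least 1 TPM and were tested. With limma 3.58.1 in R 4.3.3, log2 of TPM plus 1 (the pseudocount) was fitted on all 24 libraries, with a variance trend. Changes of low genes are understated on that scale. A line per arm on hours of chase (20 residual degrees of freedom) gave slopes and their difference. A mean per arm and time (12 residual degrees of freedom) gave level differences. All differences are induced minus uninduced. Two-sided p-values were adjusted by Benjamini-Hochberg over all genes tested, with a threshold of 0.05. The script was tested on simulated data. Also used were data.table (version 1.17.8), Python 3.11.15 and matplotlib 3.10.9.

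The members and the gene lists were chosen with earlier results of these data known. All 9 members are named, with up to 4 genes of each list by the smallest p of the slope difference, and for each member up to 3 genes averaging at least 5 TPM by the highest r. CPEB2 was named by level after its value was seen. Early and late contrasts, slopes from 1 h on and transcript fits were likewise added after the values had been seen. Alternatives covered pseudocount, filter, scaling, the variance trend, a replicate block, a shorter chase, a trend contrast, and leaving out each library or replicate series. Deviations of same-numbered libraries of the arms correlated over 0.1 at 3 of 6 times, and so did those of 29 of all 66 pairs of groups. The main fit did not treat equal numbers as pairs, so any effect shared by a replicate number stays in its spread. The replicate block takes such an effect out.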

Additional observations from a re-analysis of the deposited data

Results flagged for a closer look

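For 3 of the 9 regulators the difference between induced and uninduced cells changed along the chase by a test of that change, the difference at 4 and 6 h minus the difference at 0, 0.5 and 1 h. The change was -0.855 for ZFP36L1, -0.722 for ZFP36L2 and -0.513 for CPEB4, in log2 of TPM plus 1. ZFP36L1 and ZFP36L2 passed to lower levels in induced cells late in the chase, while CPEB4 passed from a higher level in induced cells to overlapping libraries. The contrast was added after the crossing had been seen, and it passed for these 3 genes without any 1 library and under every setting tried. The share of RMRP, MIR6723 and RPPH1 also changed along the chase and was highest in induced replicate 2 at 0 and 0.5 h. Without these RNAs the contrast passed for all 3 genes, while its calls over all genes numbered 1404 rather than 768. Whether the changing share contributed to the pattern was not tested.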

How the results depend on the processing

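No called result of the 9 members changed direction under any alternative, and the late calls of the ZFP36 genes and the late minus early calls of ZFP36L1, ZFP36L2 and CPEB4 held in all. Values that were not called turned round for CPEB4 at 6 h (0.000104 with quantile normalization, -0.157 to 0.124 without 1 library) and at 4 and 6 h (-0.117 to 0.0232 without 1 library), and for its uninduced slope (0.0638 with the chase up to 4 h). They did so for the KHSRP mean difference (0.00509 with protein-coding transcripts alone, -0.0608 to 0.0104 without 1 library), the KHSRP slope difference (-0.0101 to 0.0423 without 1 library) and the PUM2 mean difference (-0.000439 with median-of-ratios scaling). The cause was not tested. Members called for the slope difference numbered 0, but 1 among genes of at least 5 TPM or with a pseudocount of 0.1, 2 with protein-coding transcripts alone, quantile normalization or without the 3 noncoding RNAs, 3 with the trend contrast and 0 to 2 without 1 library. Members called at the early times numbered 3, but 5 with protein-coding transcripts alone or quantile normalization and 1 to 4 without 1 library. Over all genes, slope differences called numbered 46, but 0 with the chase up to 4 h, 27 from 1 h on, 30 with no filter, 84 at 5 TPM, 88 with a pseudocount of 0.1, 179 with quantile normalization, 328 without the 3 RNAs, 400 with protein-coding transcripts, 823 with the trend contrast, 8 to 164 without 1 library and 0 without either replicate series, which leaves 1 library per group. Calls at 0 h numbered 4, against 2 with no variance trend, 7 with quantile normalization, 8 without the 3 RNAs, 10 with protein-coding transcripts and 0 to 5 without 1 library. Those at 6 h numbered 1226, against 491 to 1316 without 1 library. The late minus early count of 768 became 1465 with protein-coding transcripts, 1404 without the 3 RNAs and 486 to 1019 without 1 library. The early count of 743 became 1290 with median-of-ratios scaling, 1573 with quantile normalization, 1841 without the 3 RNAs, 2035 with protein-coding transcripts and 275 to 1020 without 1 library, and the late count of 2170 was 1440 to 2287. That range of the late count was for fits without 1 library. With all libraries the late count was 2906 with median-of-ratios scaling, 2791 with quantile normalization and 2580 without the 3 RNAs. The libraries share a replicate number across arms and times, and the deviations of same-numbered libraries correlated at 0.0203 to 0.156 between arms at the same time. With a replicate block the calls over all genes were 99 for the slope difference, 11 at 0 h, 1870 at 6 h, 1710 early, 3073 late and 1281 late minus early. Calls by gene were compared for slopes and mean differences of all 9 members, and for other contrasts only of the ZFP36 genes and CPEB4. Among these the replicate block changed 1 call, the early difference of ZFP36L2 (0.172, adjusted p = 0.0301). Depth is unknown and sets no limit that can be stated.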
